A study of Mus musculus with 4 samples.

Results

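The proteasome subunit genes are the genes whose symbols begin with Psma, Psmb, Psmc, Psmd, Psme or Psmg and a digit. The deposited mouse gene list of 32285 genes held 49 such symbols, and 47 of them reached at least 10 UMIs over the matrices of the 4 samples and are described here. The excluded genes were Psmb11, the catalytic subunit of the thymus, with 0 UMIs, and Psma8, a testis alpha subunit, with 4 UMIs. Psmc3ip, whose product acts in meiotic recombination, matched by its name only and is not a proteasome subunit; it stays among the 47. Single-cell RNA sequencing was performed on tumors raised in Swiss albino mice by intraperitoneal injection of DLA cells, a line that the labels call lymphoma. All 4 samples therefore share the injected DLA cells. The control group comprised 2 untreated samples (Control 1 and Control 2; the study's supplement calls them vehicle controls), and the SP11 group comprised 2 samples (Treated 1 and Treated 2) from mice given SP11, an HSP90 inhibitor, orally at 30 mg/kg for 17 days. The sources describe independent sets of samples but not how many animals each library holds. They also do not give the sex or age of the mice, or how far the host immune cells of the tumors were sorted. The p-values therefore refer to these 4 samples at most, and to fewer where a gate held too few cells.

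The proteasome is the protease that removes ubiquitin-tagged proteins. Its barrel-shaped core is built from alpha rings, which gate the entrance, and beta rings, of which some subunits cut peptide bonds. A regulatory cap, made of ATPase subunits that unfold substrates and of non-ATPase subunits that bind and remove ubiquitin, feeds the core. Interferon-responsive cells and many leukocytes replace the constitutive catalytic subunits (Psmb5, Psmb6 and Psmb7) with immunoproteasome subunits (Psmb8, Psmb9 and Psmb10) and add the PA28 activator (Psme1 and Psme2), a form known for making peptides for MHC class I presentation. HSP90 is a chaperone, and the proteasome clears client proteins that lose its support.

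Cells with at least 200 genes and at most 10% mitochondrial UMIs were kept, which left 916 and 566 cells of the controls and 1831 and 1091 cells of the treated samples. A cell entered a gate when the markers of that gate made up at least 75% of its marker UMIs. In the order Control 1, Control 2, Treated 1, Treated 2, the tumour gate (Krt8 and Krt18) held 850, 534, 1227 and 576 cells, the B gate 1, 0, 160 and 154, the T gate 9, 1, 12 and 80, and the myeloid gate 28, 18, 217 and 145. Marker levels in the tumour gate went against the label of lymphoma: markers of epithelium not used for gating summed to between 1731 and 2748 UMIs per 1000000 UMIs of the summed gate (CPM), whereas pan-leukocyte markers summed to between 17.1 and 65.4 CPM, against 1621 to 2693 CPM in the myeloid gate. Of the 6 epithelial markers, Cldn7 was at 0 in the tumour gate of all 4 samples, and Cdh1, the epithelial cadherin, was at 0 in mitotic subsets of both controls, so not every epithelial marker was present. Krt8 and Krt18 define this gate, and it is called the keratin-positive tumour gate here with no other cell type name. Median depth ran from 8825 to 19843 UMIs per tumour-gated cell and from 1057 to 2663 per myeloid-gated cell. Hemoglobin transcripts reached 65262 to 88188 CPM in the B and myeloid gates of the treated samples, against at most 290 CPM in the myeloid gate of the controls, and in the tumour gate they stood at 267, 178, 10284 and 4711 CPM. In the T gate of Treated 1 and Treated 2 they stood at 33410 and 48106 CPM. Between 60 and 359 cell barcodes were shared by any pair of libraries, and the shared kept cells fell into the same gate in 36.7% to 88.9% of cases, close to the 39.5% to 89.3% given by the gate shares alone. The same order of samples holds wherever 4 values are listed.

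In the tumour gate the members together took a similar share of the UMIs in every sample, between 9458 and 9879 CPM. Psma7, an alpha ring subunit, was the most abundant with 740, 788, 749 and 688 CPM. It was followed by Psmb3, a non-catalytic beta subunit, at 572, 600, 591 and 583 CPM and by Psmd7, a scaffold subunit of the cap lid, at 499, 485, 577 and 505 CPM. Counts of this 3′ assay do not scale with transcript length, but capture can differ between genes, so the order is one of UMIs. At the other end stood Psme2b at 1.16 to 1.51 CPM, Psmb9 at 3.11 to 5.55 CPM and Psmb8 at 13.9 to 22.8 CPM. The 3 constitutive catalytic subunits differed among themselves in the same cells: Psmb5 lay at 493 to 533 CPM and Psmb6 at 417 to 482 CPM, whereas Psmb7 lay at 57.5 to 82.3 CPM.

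The catalytic subunits come in pairs of related genes, and a read must tell the partners apart. The coding sequences of each pair were therefore compared. Psmb8 (chr17:34197721-34201454, plus strand, GRCm38) and Psmb5 (chr14:54614119-54618022, minus strand) were identical at 71.1% of aligned coding bases, and their longest shared run was 18 bases. Psmb9 (chr17:34181987-34187764, minus strand) and Psmb6 (chr11:70525367-70527858, plus strand) were identical at 69.3% with a longest run of 11 bases, and Psmb10 (chr8:105935735-105938444, minus strand) and Psmb7 (chr2:38588036-38644087, minus strand) at 66.4% with a longest run of 15 bases. No longer run was found in any annotated transcript of a pair. The coding stretches around these runs follow with the shared run in capitals, because the pair shares rest on telling the partners apart.
Psmb8: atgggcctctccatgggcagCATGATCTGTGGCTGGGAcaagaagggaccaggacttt
Psmb5: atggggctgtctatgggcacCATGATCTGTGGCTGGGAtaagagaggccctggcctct
Psmb9: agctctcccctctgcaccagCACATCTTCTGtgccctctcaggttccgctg
Psmb6: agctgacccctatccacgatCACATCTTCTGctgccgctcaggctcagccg
Psmb10: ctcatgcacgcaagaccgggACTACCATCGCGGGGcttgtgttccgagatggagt
Psmb7: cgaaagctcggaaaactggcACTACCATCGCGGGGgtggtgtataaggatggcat
The activator gene Psme2 (chr14:55587441-55591113, minus strand) was different in this respect. It shared 99.3% of coding bases and a run of 341 bases with its intronless copy Psme2b (chr11:48945354-48946190, minus strand), so the few Psme2b counts are uncertain and may belong to Psme2.

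Of all roles, the 3 immunoproteasome genes had the highest median difference between the immune gates and the keratin-positive tumour gate, 4.86 on the log2 scale for myeloid and 5.15 for B cells. Psmb8, which replaces Psmb5 and carries the chymotrypsin-like activity, was at 15.5, 13.9, 22.8 and 16.9 CPM in the tumour gate and at 850, 744, 489 and 468 CPM in the myeloid gate. In the B gate of the treated samples it reached 630 and 545 CPM, on average the highest level of any member there, and in the 80 T-gated cells of Treated 2 it reached 984 CPM. No immune value came near the tumour values. Psmb9, the partner of Psmb6, was at 3.11, 4.74, 5.55 and 4.17 CPM in the tumour gate, at 213, 400, 173 and 153 CPM in the myeloid gate, at 118 and 164 CPM in the B gate and at 264 CPM in the T gate of Treated 2. Psmb10, the partner of Psmb7 with trypsin-like activity, differed less between gates: 54.5, 59.6, 63.3 and 49.9 CPM in the tumour gate against 406, 305, 272 and 226 CPM in the myeloid gate, 159 and 154 CPM in the B gate and 144 CPM in the T gate of Treated 2.

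In a fit of all gate sums with at least 20 cells and with the sample as a block (edgeR quasi-likelihood test, Benjamini-Hochberg adjustment over 7045 genes), 5 of the 45 tested members were higher in the myeloid than in the tumour gate, with 31.5% of all tested genes called higher and 62.3% called in either direction. These 5 were the 3 immunoproteasome subunits and both PA28 subunits. The log2 fold change was 4.86 ± 0.20 (SE) for Psmb8 (adjusted p = 1.16e-125), 5.21 ± 0.29 for Psmb9 (2.05e-72) and 2.27 ± 0.21 for Psmb10 (6.52e-27) by edgeR. Against the tumour gate, the same 5 members were higher in the B gate, where 26.2% of all genes were called higher and 51.3% in either direction: 5.18 ± 0.22 for Psmb8, 5.15 ± 0.34 for Psmb9 and 1.71 ± 0.27 for Psmb10. Both comparisons use the same tumour sums. The fit left 3 residual degrees of freedom, and edgeR estimates the spread of a gene partly from all genes. The very small p-values therefore do not measure the spread of 1 gene between samples alone. The myeloid values rest on Control 1 and the treated samples, since the 18 cells of Control 2 were under the minimum of 20, and the B values rest on the treated samples. Without Treated 2, Psmb10 in the B gate no longer passed (1.44, adjusted p = 0.0696, edgeR).

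**Figure D1:**
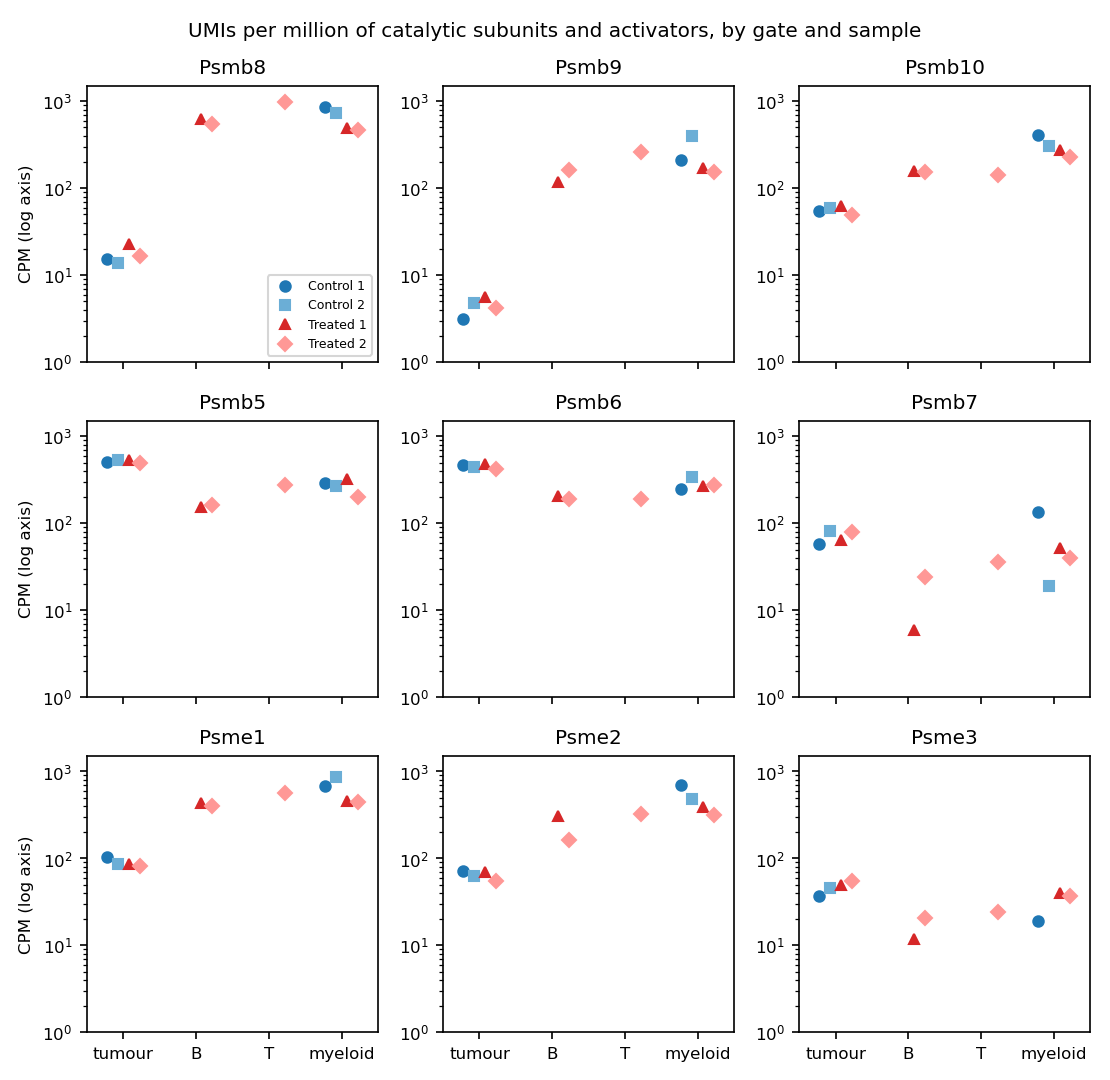
CPM (log axis) of 9 catalytic and activator genes in each gate, with 1 point per sample; gates of a sample with under 18 cells are not drawn, and the myeloid value of Psme3 in Control 2 is 0 and has no point. Psmb8, Psmb9, Psme1 and Psme2 lie higher in every immune point than in any tumour point, whereas Psmb5 and Psmb6 lie lower.

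The shares within each catalytic pair put the gates on a common scale. Psmb8 made up 2.97%, 2.55%, 4.12% and 3.31% of the Psmb8 and Psmb5 UMIs in the tumour gate and 74.6%, 73.6%, 59.9% and 70.2% in the myeloid gate. In the B gate of the treated samples the share was 80.5% and 77.2%, and in the T gate of Treated 2 it was 78.1% (exact 95% interval 69.0% to 85.6%, counting error only). Psmb9 made up 0.659%, 1.06%, 1.14% and 0.991% of its pair in the tumour gate and 45.8%, 53.8%, 39.2% and 35.7% in the myeloid gate. The B gate showed 36.4% and 46.1% and the T gate of Treated 2 57.9% (40.8% to 73.7%). Thus the tumour gate was almost purely constitutive for these 2 pairs, and the immune gates were mixed. The Psmb10 pair behaved otherwise. It stood at 48.7%, 42.0%, 49.8% and 38.8% in the tumour gate and at 75%, 94.1%, 84.1% and 85.1% in the myeloid gate. In the tumour gate Psmb7 was the scarce constitutive subunit, with a mean of 70.5 CPM. Psmb10 had a mean of 56.8 CPM there, above Psmb8 at 17.3 CPM and Psmb9 at 4.39 CPM. The B gate gave 96.4% and 86.3% and the T gate of Treated 2 gave 80.0% (51.9% to 95.7%).

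Averaged over the 4 samples, the myeloid gate exceeded the tumour gate by 66.3 ± 7.34 percentage points for the Psmb8 pair, by 42.7 ± 8.03 for the Psmb9 pair and by 39.7 ± 11.6 for the Psmb10 pair (SD of the within-sample differences, n = 4), and the share was higher in 4 of 4 samples for each pair. The two-sided exact permutation p was 0.125 for each, adjusted 0.125 over the 3 pairs, which is the smallest value that 4 pairs of gates allow. These shares include the 18 myeloid cells of Control 2.

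**Figure D2:**
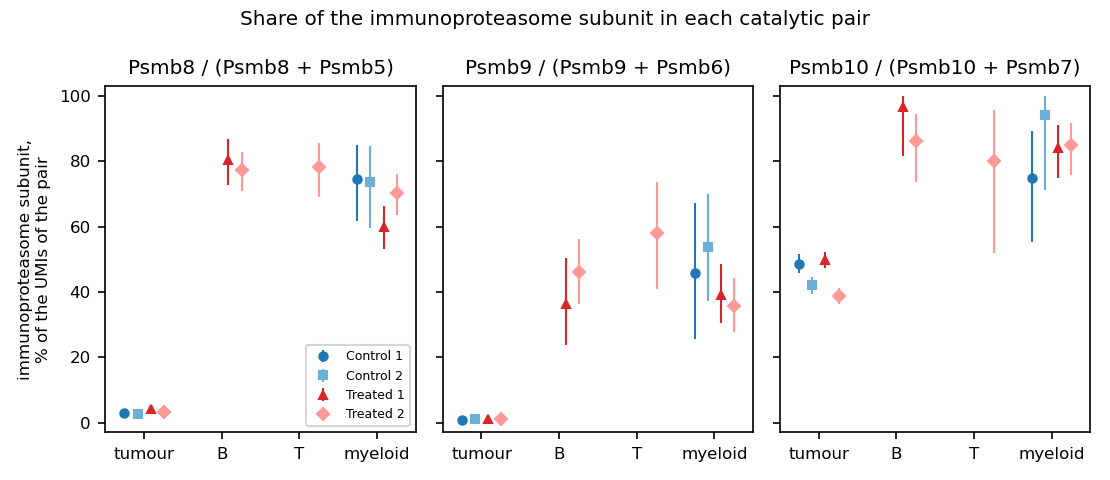
Percent of the UMIs of each catalytic pair that belong to the immunoproteasome subunit, by gate, with 1 point per sample and exact 95% binomial intervals as bars. The tumour points lie between 0.659% and 4.12% for the Psmb8 and Psmb9 pairs and between 38.8% and 49.8% for the Psmb10 pair.

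Free RNA in the droplets can carry transcripts between gates, and its part in these levels was not tested, but the levels can be set beside those of leukocyte markers in the same sample. The pan-leukocyte list in the tumour gate amounted to 0.763%, 1.08%, 2.55% and 1.54% of its level in the myeloid gate. Psmb8 amounted to 1.83%, 1.87%, 4.66% and 3.60% and Psmb9 to 1.46%, 1.18%, 3.21% and 2.73%, so both lay somewhat above the leukocyte list in each sample, and all 3 were lowest in the controls and highest in Treated 1. Psmb10 amounted to 13.4%, 19.5%, 23.3% and 22.0%, Psme1 to 15.5%, 10.0%, 18.7% and 18.7%, and Psme2 to 10.4%, 13.2%, 17.7% and 17.7%, in each sample well above the leukocyte list. In the other direction, the epithelial list was at 444, 191, 283 and 129 CPM in the myeloid gate and at 212 and 126 CPM in the B gate.

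The activators divided into those that followed the immunoproteasome and those that did not. Psme1, the alpha subunit of PA28, was at 105, 85.9, 86.5 and 82.8 CPM in the tumour gate and at 676, 858, 463 and 444 CPM in the myeloid gate, with 430 and 398 CPM in the B gate and 564 CPM in the T gate of Treated 2. Psme2, the beta subunit, was at 72.6, 62.9, 69.6 and 55.7 CPM in the tumour gate and at 696, 477, 393 and 315 CPM in the myeloid gate, with 312 and 164 CPM in the B gate and 324 CPM in the T gate of Treated 2. The myeloid excess was 2.44 ± 0.19 for Psme1 (adjusted p = 2.59e-38) and 2.65 ± 0.19 for Psme2 (4.36e-42) on the log2 scale by edgeR, and the B excess was 2.47 ± 0.21 and 2.10 ± 0.24. Psme3, the nuclear PA28 gamma, was at 36.6, 45.2, 48.9 and 54.9 CPM in the tumour gate and at 19.3, 0, 40.5 and 36.7 CPM in the myeloid gate, a difference of -0.45 ± 0.34 that did not pass (adjusted p = 0.241, edgeR). At 11.8 and 20.9 CPM it was lower in the B gate (-1.41 ± 0.50, adjusted p = 0.0110, edgeR). That call was lost without either treated sample, with an adjusted p of 0.213 without Treated 1 and 0.329 without Treated 2, without shared barcodes, with 0.124, and by DESeq2, with 0.0828. Psme4, the PA200 activator, was at 36.1 to 54.2 CPM in the tumour gate and at 0, 19.1, 51.5 and 91.8 CPM in the myeloid gate, and its difference of 0.48 ± 0.29 had an adjusted p of 0.134 by edgeR.

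The promoters of the matched members were searched for 6 short motifs on both strands in RefSeq windows of 300 bases (GRCm38.p6) that run from 250 bases before the start of transcription. Of the 47 members, 40 had a window. Of the 5 members higher in the immune gates, Psmb8 and Psme1 held an interferon-type motif, and Psmb9, Psmb10 and Psme2 had a window without one. The stretch of 30 bases around the match is shown for Psmb8, Psme1 and the constitutive partners Psmb5 and Psmb6, with the match in capitals and in the direction of the gene. The gamma-activated site, spelled TTCNNNGAA and known from interferon-gamma responses, occurred in the Psmb8 window at 97 bases before the start (chr17:34198088-34198117, plus strand), which lies inside the annotated span of Psmb8.
Psmb8: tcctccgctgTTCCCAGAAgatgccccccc
The interferon-stimulated response element, spelled GAAA, any 2 bases and GAAA again, occurred on the opposite strand in the Psme1 window, 10 bases into the transcript (chr14:55578493-55578522, plus strand).
Psme1: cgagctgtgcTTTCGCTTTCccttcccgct
The antioxidant response element, spelled TGACNNNGC and bound by NFE2L1 and NFE2L2, occurred in the windows of the constitutive subunits Psmb5 at 47 bases before the start (chr14:54618023-54618052, minus strand) and Psmb6 at 9 bases before the start (chr11:70525338-70525367, plus strand).
Psmb5: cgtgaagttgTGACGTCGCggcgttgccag
Psmb6: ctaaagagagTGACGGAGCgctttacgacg
Such matches are common. Counted by gene, as the members are, the gamma-activated site was found in 9.55% of all 27025 genes with a window and in 3 of the 40 members (Psmb8, Psmd2 and Psmg1), the interferon-stimulated element in 3.99% of genes and in 5 members (Psme1, Psmb3, Psmd4, Psmd9 and Psmg4), and the antioxidant element in 14% of genes and in 6 members. The ETS core CCGGAAGT lay in 9 members and 4.31% of genes, the CCAAT box CCAAT in 14 members and 41.1% of genes, and the heat shock element (TTC, any 2 bases, GAA, any 2 bases, TTC) in 0 members and 0.662% of genes. Counted by window, over 32851 windows, the shares were 8.30%, 3.44%, 12.4%, 3.89%, 37.4% and 0.603% in the same order. In the Psmb9 window, CCAAT was the only one of the 6 motifs found, and the Psmb10 and Psme2 windows held 0 of the 6. The annotated spans of Psmb9 and of Tap1 (chr17:34187553-34197225, plus strand), which transports peptides for MHC class I, overlap head to head, and Psmb8 lies directly beyond Tap1.

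Most core and cap genes were lower in the myeloid than in the tumour gate. In the myeloid gate 26 of the 45 tested members passed as lower, beside 30.8% of all tested genes, and the median log2 fold change of the members was -0.69 beside -0.04 over all genes. By role, 5 of 7 alpha ring genes, 3 of 4 non-catalytic beta genes, 2 of 3 constitutive catalytic genes, 5 of 6 ATPases and 9 of 11 non-ATPases of the cap were lower, and the called members that were not lower were the 5 named above. The summed ATPases stood at 657, 591, 633 and 517 CPM in the myeloid and at 1080, 1120, 1111 and 1068 CPM in the tumour gate, lower in 4 of 4 samples. The alpha ring was less uniform, with 2608, 2098, 1758 and 1610 CPM in the myeloid and 2338, 2596, 2350 and 2434 CPM in the tumour gate, so that in Control 1 the myeloid sum was the higher one. With hemoglobin left out of the totals the treated myeloid sums of the alpha ring were 1913 and 1765 CPM, against 2375 and 2445 CPM in the tumour gate. Psmb5, with chymotrypsin-like activity, was at 508, 533, 531 and 493 CPM in the tumour gate and at 290, 267, 327 and 199 CPM in the myeloid gate (-0.98 ± 0.19, adjusted p = 1.01e-06, edgeR). Psmb6, with caspase-like activity, was at 468, 444, 482 and 417 CPM in the tumour gate and at 251, 343, 268 and 275 CPM in the myeloid gate (-0.78 ± 0.19, 1.21e-04 by edgeR). Psmb7, with trypsin-like activity, did not pass (-0.36 ± 0.30, adjusted p = 0.294, edgeR), but was called lower without Control 1 (-0.71, 0.0312), in treated samples only (-0.72, 0.0295) and with gate markers at 90% (-0.75, 0.0300). Its myeloid values of 135, 19.1, 51.5 and 39.8 CPM rest on 7, 1, 14 and 13 UMIs and overlap the tumour values.

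The 5 members with the largest decrease in the myeloid gate were the meiotic gene Psmc3ip (-2.57 ± 0.58), the core assembly chaperone Psmg2 (-1.89 ± 0.34), the lid subunits Psmd12 (-1.58 ± 0.22) and Psmd7 (-1.56 ± 0.20) and the ATPase Psmc6 (-1.54 ± 0.25). Psmc3ip rests on 2, 0, 1 and 1 UMIs in the myeloid gate. Its level in Control 1 was 38.6 CPM in the myeloid and 33.7 CPM in the tumour gate, and the call was lost without Treated 2 (-1.95, adjusted p = 0.132, edgeR). Psmd7 was at 499, 485, 577 and 505 CPM in the tumour gate and at 232, 153, 206 and 147 CPM in the myeloid gate, and the gates did not overlap. Psmc6, an ATPase of the cap base, was at 194, 222, 188 and 213 CPM in the tumour gate and at 96.6, 134, 62.5 and 67.3 CPM in the myeloid gate. Not every core gene fell: Psma7 was at 1043, 934, 850 and 655 CPM in the myeloid gate and differed by 0.12 ± 0.16 (adjusted p = 0.516, edgeR), and Psma4 by -0.08 ± 0.19 (0.729).

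In the B gate 30 of the 45 tested members were lower than in the tumour gate, beside 25.1% of all genes, and the median was -0.99 beside -0.02 over all genes. All 3 constitutive catalytic genes were lower. Psmb5 was at 153 and 161 CPM in the B gate of Treated 1 and Treated 2 (-1.50 ± 0.24, adjusted p = 2.3e-09, edgeR), Psmb6 at 206 and 192 CPM (-1.02 ± 0.23, 4.53e-05) and Psmb7 at 5.89 and 24.4 CPM from 1 and 7 UMIs (-1.84 ± 0.48, 3.74e-04). On leaving out 1 sample at a time, the Psmb7 estimate ran from -3.25 to -1.37, and its call was lost without either treated sample. By DESeq2 the adjusted p of Psmb7 was 0.0522. The Psmb6 call was lost without Treated 2, with estimates from -1.26 to -1.04 over the samples left out. The largest decreases were those of the alpha subunit Psma6 (-1.90 ± 0.25), the ubiquitin-binding scaffold Psmd2 (-1.88 ± 0.36), Psmd12 (-1.88 ± 0.28), Psmb7 and Psmd7 (-1.82 ± 0.25). With 1 sample left out at a time, the Psmd2 estimate ran from -2.76 to -1.59. Psma6 was at 487 and 517 CPM in the tumour gate of the treated samples and at 94.2 and 129 CPM in their B gate. The 2 cap chaperones tested, Psmd9 and Psmd10, had differences of 0.41 ± 0.38 and 0.41 ± 0.43 and did not pass. Without the scaling factors of edgeR, 33 members were lower and the median over all genes moved to -0.21. Without Treated 2, 12 members were lower in the myeloid and 7 in the B gate; without Treated 1, 21 and 18 were.

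**Figure D3:**
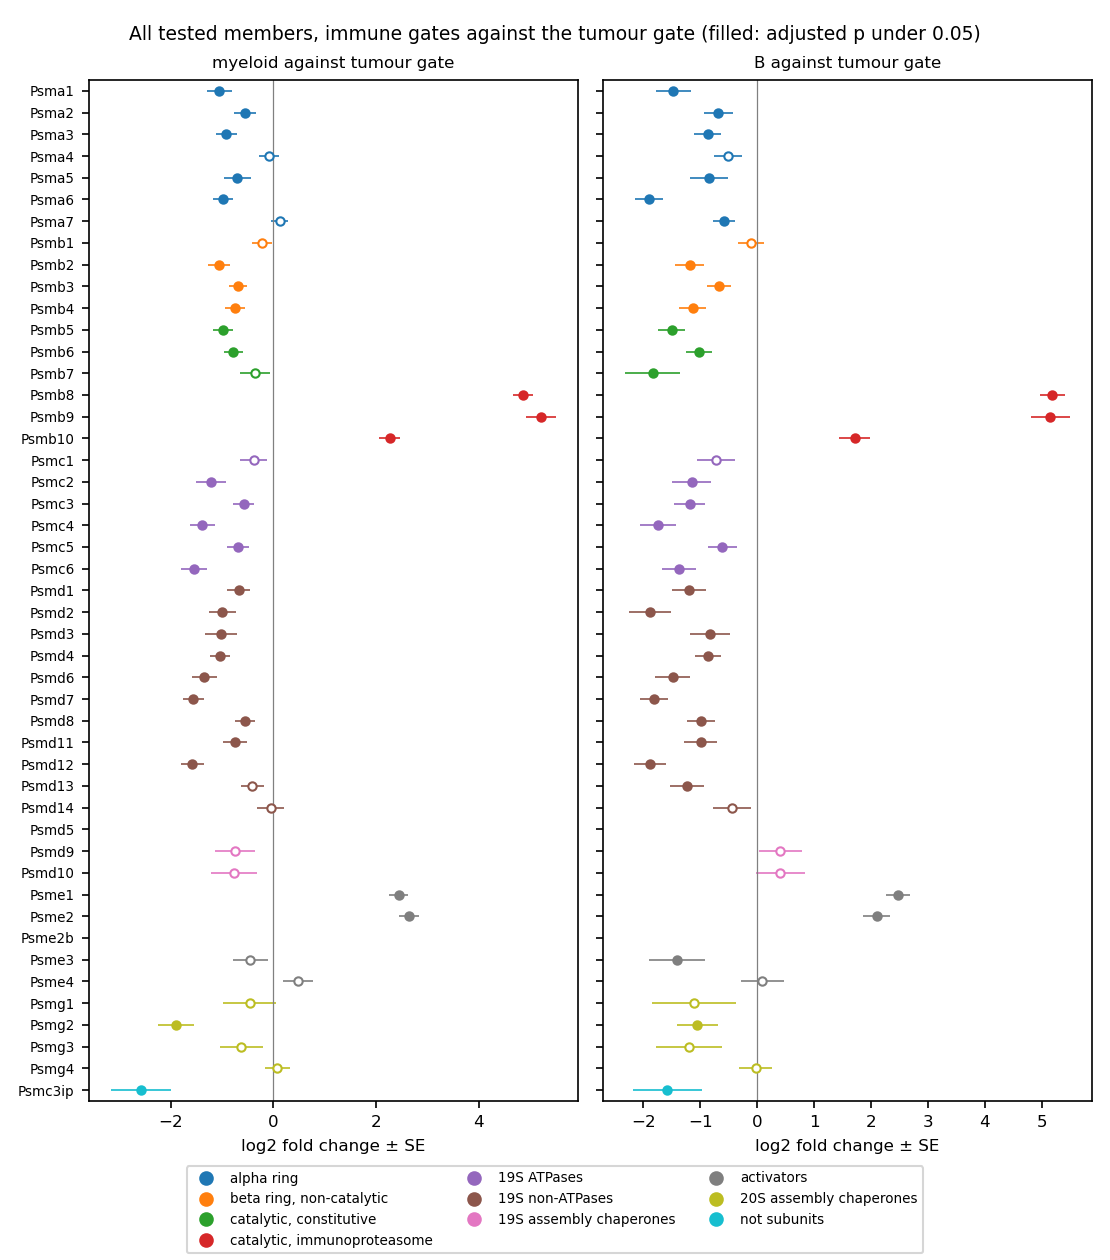
Log2 fold change with its SE (horizontal axis) of every tested member, in colour by role, for the myeloid against the tumour gate (left) and the B against the tumour gate (right); filled points have an adjusted p under 0.05. Psmb8, Psmb9, Psmb10, Psme1 and Psme2 stand to the right in both panels while most core and cap genes stand to the left of 0.

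The summed level of all members followed from both movements. It was 9458, 9879, 9625 and 9541 CPM in the tumour gate, 10298, 9229, 7811 and 6638 CPM in the myeloid gate, 5826 and 5445 CPM in the B gate and 7464 CPM in the T gate of Treated 2. With hemoglobin genes left out of the totals, the treated myeloid values were 8501 and 7280 CPM and the B values 6305 and 5825 CPM. The B gate has no control value to compare with. In the myeloid gate hemoglobin moved with treatment, and its part in the lower treated values beyond that arithmetic was not tested. As CPM are shares of the RNA captured, a lower share and a lower amount per cell cannot be told apart.

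For the T gate, Treated 1 held 12 cells and Treated 2 held 80, so the comparison with the tumour gate was run with a minimum of 10 cells, a choice made after the counts of cells were seen. By edgeR 4 of 44 tested members were higher and 22 lower, beside 14.1% and 22.5% of 5891 genes (36.5% in either direction). The median of the members was -1.29 and that of all genes -0.62, so much of the downward shift was shared by all genes on this scale. Without scaling factors 5 members were higher and 9 lower, with medians of -0.84 for the members and -0.13 for all genes. The higher ones were Psmb8 (5.34 ± 0.33), Psmb9 (5.54 ± 0.53), Psme1 (2.22 ± 0.35) and Psme2 (1.97 ± 0.41), while Psmb10 did not pass (1.11 ± 0.50, adjusted p = 0.0692). Psmb10 did pass in 5 alternative settings, among them totals without scaling factors (1.65, adjusted p = 0.00749, edgeR) and DESeq2 (1.58, 0.0102). Among the lower ones was Psma6, which stood at 156 CPM in the T gate of Treated 2 against 517 CPM in its tumour gate (-2.18 ± 0.44). The count of called members fell to between 11 and 16 in 4 settings.

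Between the immune gates few members were called, and how many depended on the setting. Against the myeloid gate, 0 of the 45 tested members were higher and 3 were lower in the B gate, beside 11.7% and 14.1% of all genes (25.8% in either direction). These were Psma6 (-0.93 ± 0.28, adjusted p = 0.00541), Psma7 (-0.70 ± 0.20, 0.00397) and Psmb7 (-1.48 ± 0.57, 0.0405), all by edgeR. Psma7 was at 424 and 408 CPM in the B gate against 850 and 655 CPM in the myeloid gate of the same samples, and Psma6 at 94.2 and 129 CPM against 246 and 211 CPM. The Psmb7 estimate ran from -3.36 to -1.06 when 1 sample was left out at a time. Without either treated sample 0 members passed. Psmb8, Psmb9 and Psmb10 differed by 0.33 ± 0.21, -0.06 ± 0.30 and -0.56 ± 0.27 (adjusted p = 0.281, 0.913 and 0.120, edgeR). Without scaling factors 8 members were lower, Psmb10 (-0.75, 0.0212), Psmb5, Psmc3, Psmd13 and Psme2 in addition. With gate markers at 90%, 7 were called, among them Psmb8 as higher in B cells (0.44, 0.0276) and Psmb10 as lower (-0.61, 0.0481).

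SP11 treatment was then compared with control within the keratin-positive tumour gate, which asks whether the inhibitor shifts proteasome genes in the cells that carry most of the counts. By edgeR 0 of 47 members passed, beside 2.56% of all 11549 genes, 1.92% higher and 0.641% lower. Without adjustment 6 members had p under 0.05, and DESeq2 also called 0. With the replicate number as a block, Psma5 and Psmg2 were called lower and Psmd3 higher. The samples are not shown to be paired. The median over the members was -0.14, beside -0.00 over all genes, and the single values lay between -0.39 and 0.31. The lowest was Psma5, an alpha subunit, at 119, 160, 113 and 119 CPM (-0.39 ± 0.13, adjusted p = 0.145); the treated values lay just under Control 1 and well under Control 2. The highest were Psmb8 at 15.5, 13.9, 22.8 and 16.9 CPM (0.31 ± 0.18, adjusted p = 0.436) and Psmd3, a lid subunit, at 69.3, 63.0, 81.5 and 97.7 CPM (0.31 ± 0.13, 0.249). The pan-leukocyte list stood at 17.1, 17.5, 65.4 and 41.6 CPM in this gate, highest in Treated 1 as was Psmb8, and hemoglobin was also higher in both treated samples. Their part in the SP11 differences was not tested. Psmb5, Psmb6 and Psmb7 had differences of -0.14, -0.14 and -0.09 with SE from 0.13 to 0.14, and Psmb9, Psmb10, Psme1, Psme2, Psme3 and Psme4 of 0.19, -0.13, -0.29, -0.23, 0.22 and 0.16, with adjusted p from 0.316 to 0.810 by edgeR. Without the scaling factors, the median moved to -0.02 for the members and to 0.12 for all genes, and 0 members passed.

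The shares of the catalytic pairs were compared over the same sums. The Psmb8 share was 3.71% ± 0.577 (SD, n = 2) with SP11 and 2.76% ± 0.301 in controls (exact permutation test, two-sided p = 0.3333 and adjusted 1 over 3 pairs, where 2 samples against 2 can give no smaller p), and the groups did not overlap. The Psmb9 share was 1.06% ± 0.105 against 0.858% ± 0.282 (exact p = 0.667) and the Psmb10 share was 44.3% ± 7.76 against 45.3% ± 4.69 (exact p = 1).

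The myeloid gate of Control 2 held 18 cells, under the minimum of 20, so SP11 was compared there with a minimum of 10 cells, a choice made after the counts of cells were seen. Of the 47 members 34 passed the filter on low counts, and 0 of them were called, beside 3.52% of the 2302 genes tested (1.74% higher, 1.78% lower); 6 had an unadjusted p under 0.05 and DESeq2 called 0. The members' median was -0.40, beside 0.04 over all genes. Control levels of Psmb8 were 850 and 744 CPM, against 489 and 468 CPM with SP11 (-0.68 ± 0.25, adjusted p = 0.141, edgeR). Psme1 was at 676 and 858 CPM against 463 and 444 CPM (-0.70 ± 0.26, 0.146) and Psmb9 at 213 and 400 CPM against 173 and 153 CPM (-0.86 ± 0.36, 0.188). The groups did not overlap for these 3 genes. Hemoglobin in the same sums stood at 290, 229, 81159 and 88188 CPM. The 3 neutrophil markers (S100a8, S100a9 and Retnlg) summed to 58.0, 76.3, 857 and 4034 CPM, with S100a9 and Retnlg at 0 in the controls. The myeloid markers of the gate summed to 4463, 3547, 9006 and 9154 CPM, and the 4 myeloid markers not used for gating to 8540, 9458, 7870 and 7899 CPM. The 5 B markers not used for gating, of which Cd74 alone was detected in Control 2, summed to 14085, 12300, 6020 and 5585 CPM. These marker sums thus differed with treatment, but the markers of the gate also selected its cells. The neutrophil markers stood at 1077 and 475 CPM in the B gate of Treated 1 and Treated 2. In the T gate of the same samples they stood at 0 and 1944 CPM. Whether the make-up of the myeloid gate or free RNA differed was not tested, nor was the part of either in these levels. Psmb8 made up 74.1% ± 0.701 of its pair in control and 65.0% ± 7.26 in treated myeloid cells (SD, n = 2, exact permutation p = 0.3333, adjusted 0.5). For the Psmb9 pair the shares were 49.8% ± 5.67 and 37.4% ± 2.44 (exact p = 0.3333, adjusted 0.5), and for the Psmb10 pair 84.6% ± 13.5 and 84.6% ± 0.683 (exact p = 1). Psmd8, a lid subunit, at 425 and 458 CPM against 246 and 193 CPM, had an adjusted p of 0.100 and passed in 2 alternatives, with 0.0498 when gate markers needed 60% and 0.0420 without shared barcodes.

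The difference of the SP11 effect between the myeloid and the tumour gate was tested as an interaction. By edgeR 0 of 47 members passed, beside 0.831% of 11436 genes (0.498% higher, 0.332% lower), with 3 at an unadjusted p under 0.05 and 0 by DESeq2. For Psmb8 the difference was -0.68 ± 0.31 (adjusted p = 0.517). The scaling mattered here, with a median over all genes of 0.60 with the scaling factors and 0.17 without. Without them Psmb8 was the single member that passed (-1.15 ± 0.31, adjusted p = 0.0276).

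In the sums over all kept cells, where the share of each cell type also counts, the picture changed for the immunoproteasome. Psmb8 was at 21.2, 18.7, 48.6 and 52.4 CPM and Psmb9 at 4.62, 7.1, 13.3 and 14.5 CPM, and the treated samples lay well above the controls. By edgeR 2 of 47 members were higher, beside 9.11% of 12149 genes (10.7% in either direction), namely Psmb8 (1.19 ± 0.14, adjusted p = 4.74e-06) and Psmb9 (1.10 ± 0.20, 8.73e-04). One was lower, beside 1.63% of genes, namely Psma5 at 119, 159, 110 and 114 CPM (-0.46 ± 0.14, adjusted p = 0.0450). The call of Psma5 was lost without Control 2 (-0.26, adjusted p = 0.503) and without Treated 2 (0.0854), and in 6 other settings, among them DESeq2 (0.0591) and totals without scaling factors (-0.31, 0.168). Psmb10 was at 56.6, 61.2, 71.4 and 58.3 CPM and did not differ beyond its error (-0.00 ± 0.14, adjusted p = 0.990). The tumour gate held 92.8%, 94.3%, 67.0% and 52.8% of the kept cells. Within the tumour gate the Psmb8 difference was 0.31 ± 0.18 and within the myeloid gate -0.68 ± 0.25, and neither passed, while the estimate of 1.19 over all kept cells lay above both. More immune cells and more transcripts per cell cannot be told apart in the summed samples.

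**Figure D4:**
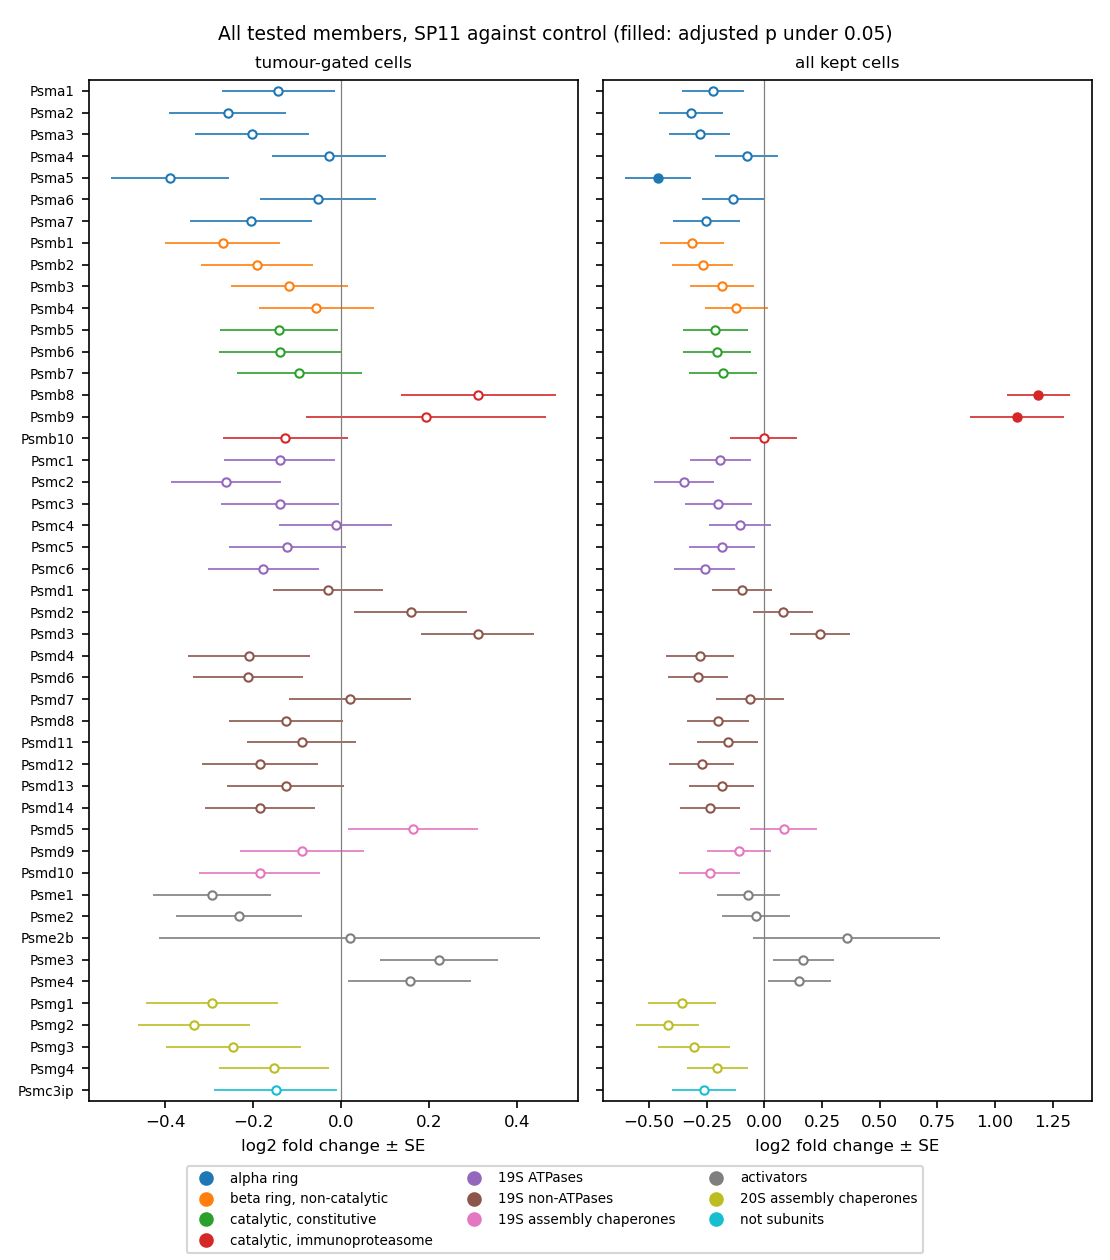
Log2 fold change with its SE (horizontal axis), SP11 against control, of every member in tumour-gated cells (left) and in all kept cells (right); filled points have an adjusted p under 0.05, and colours mark roles. In the left panel all points lie between -0.39 and 0.31 and none is filled, and in the right panel Psmb8, Psmb9 and Psma5 are filled.

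Tumour-gated cells also differ in their cell cycle. Within each sample they were split by their share of UMIs on 6 mitotic markers (Cenpf, Ube2c, Cdc20, Ccnb1, Top2a and Mki67), and the third with the highest shares (mitotic-high) was compared with the third with the lowest (mitotic-low), with the sample as a block. By edgeR 0 of 46 tested members were higher and 19 were lower in mitotic-high cells, beside 11.3% and 12.5% of 10218 genes (23.7% in either direction). The median of the members was -0.11, beside 0.00 over all genes. By role, 6 of 7 alpha ring genes, 4 of 4 non-catalytic beta genes, 0 of 6 ATPases and 4 of 11 non-ATPases were lower, with medians of -0.16, -0.17, -0.06 and -0.07. Differences between roles were not tested. The decreases were small: the alpha subunit Psma7 was at 803, 833, 804 and 730 CPM in mitotic-low cells and at 689, 754, 710 and 649 CPM in mitotic-high cells (-0.25 ± 0.03, adjusted p = 4.61e-08, edgeR).

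The 5 largest decreases were those of Psmb10 (-0.48 ± 0.08), Psme2 (-0.41 ± 0.07), Psmd8 (-0.37 ± 0.04), the core chaperone Psmg3 (-0.35 ± 0.10) and the lid subunit Psmd6 (-0.25 ± 0.05). Psmb10 was at 63.8, 70.9, 76.7 and 58.5 CPM in mitotic-low cells and at 50.0, 52.4, 56.7 and 44.7 CPM in mitotic-high cells. Psmd8 was at 403, 395, 391 and 397 CPM in mitotic-low cells and at 334, 322, 322 and 317 CPM in mitotic-high cells, with no overlap over the 4 samples. Psme2 was at 87.8, 67.0, 80.7 and 65.6 CPM in mitotic-low cells and at 62.5, 62.5, 63.8 and 50.2 CPM in mitotic-high cells, lower in 4 of 4 samples. Psmb8 and Psmb9 did not pass (-0.23 ± 0.13 and -0.09 ± 0.28, adjusted p = 0.220 and 0.864, edgeR), and Psmb6 differed by -0.05 ± 0.04 (0.352). Mitotic-high cells were deeper, with medians of 10711 to 23540 UMIs against 7428 to 17699, and the pan-leukocyte list was lower in them in 4 of 4 samples, at 14.1, 16.6, 62.1 and 40.3 CPM against 25.0, 22.0, 65.3 and 43.1 CPM. The epithelial list was also lower in each sample, at 2579, 1667, 2206 and 1957 CPM against 3008, 1874, 2545 and 2412 CPM. The 3 erythroid markers stood at 195, 68.2, 8098 and 4255 CPM against 525, 425, 12641 and 3704 CPM, higher only in Treated 2. Called doublets numbered 26, 24, 4 and 2 in mitotic-high and 11, 8, 2 and 1 in mitotic-low cells. The part of depth and of these marker transcripts in the decreases was not tested. Without the scaling factors 11 members were lower and 2 were higher, the ATPase Psmc1 (0.19, adjusted p = 0.0136) and Psme4 (0.30, 0.0125).

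**Figure D5:**
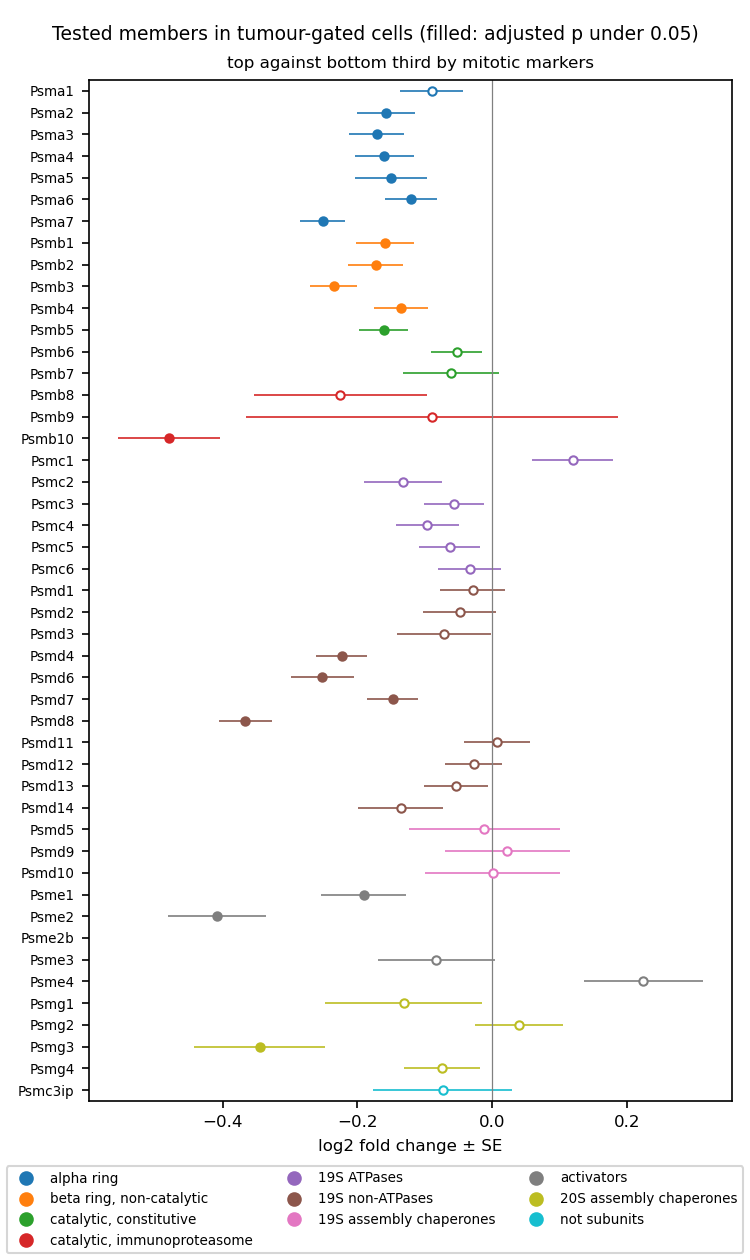
Log2 fold change with its SE (horizontal axis) of each tested member in tumour-gated cells, mitotic-high against mitotic-low; filled points have an adjusted p under 0.05. Alpha ring and non-catalytic beta genes all lie to the left of 0, and Psmb10, Psme2, Psmd8 and Psmg3 lie farthest left.

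Genes that work with the proteasome were read from a list of 30 symbols (assembly factors, shuttles, deubiquitinases, ubiquitin genes and the NFE2L1 pathway that renews proteasomes) and from a list of 8 MHC class I partners. With SP11 in the tumour gate 26 of 28 tested list genes did not pass, beside 2.56% of all genes called. Sem1, the small subunit of the cap lid, was at 232, 338, 177 and 220 CPM and was lower with SP11 (-0.64 ± 0.15, adjusted p = 0.0112, edgeR). The groups did not overlap, but Control 1 lay close to Treated 2. Control 2 was also the highest sample in the myeloid gate, where Sem1 was at 386, 744, 371 and 477 CPM. The dependence of the Sem1 call on settings is not reported here. Of the class I partners 0 of 7 tested passed in the tumour gate. In all kept cells 5 of 8 were higher, beside 9.11% of all genes, among them Irf1, Nlrc5, Tap1 and Tapbp. The share of each cell type also counts in those sums. With SP11 in the myeloid gate 0 of 5 tested class I partners passed, beside 3.52% of all genes. Against the tumour gate, 7 of 7 tested class I partners were higher in the myeloid gate, beside 31.5% of all genes, and 6 of 7 in the B gate, beside 26.2%. Tap1, the neighbour of Psmb8 and Psmb9, was at 1.04, 2.11, 2.36 and 3.67 CPM in the tumour gate and at 77.3, 57.2, 62.5 and 67.3 CPM in the myeloid gate, from 3 to 22 UMIs (4.68 ± 0.51, adjusted p = 8.23e-19, edgeR). Of 26 tested proteasome-related genes, 10 were higher and 4 lower in the myeloid gate, beside 31.5% and 30.8% of all genes, and 4 were higher and 7 lower in the B gate, beside 26.2% and 25.1%, so the counts of higher genes in the myeloid and of lower genes in the B gate lay near the share over all genes. Pomp, the core assembly factor, was at 312, 318, 314 and 332 CPM in the tumour gate and at 328, 248, 331 and 297 CPM in the myeloid gate. Its myeloid difference did not pass. In the B gate of the treated samples Pomp was at 171 and 171 CPM, lower than in the tumour gate (-0.75 ± 0.24, adjusted p = 0.00474, edgeR). Txnl1, a thioredoxin-like protein bound to the cap, was lower in the myeloid (-1.88 ± 0.21) and in the B gate (-2.07 ± 0.26). In mitotic-high cells 3 of 28 were higher and 5 lower, near the 11.3% and 12.5% over all genes, with Akirin2, the factor that brings proteasomes into the nucleus after mitosis, at 0.81 ± 0.09 (adjusted p = 4.05e-10, edgeR), and Pomp at -0.19 ± 0.04 (3.01e-04).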

How the data were processed

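The files hold UMI counts per gene and cell barcode, deposited by the authors as filtered Cell Ranger 7.1.0 matrices (version from the file headers; build mm10 per the labels, while the methods text names a human build). Members and gene lists were chosen with earlier results of these data known. Cells were filtered as stated, and doublets were called with Scrublet in scanpy 1.11.5 (a second seed was used because the first called most cells of 1 library doublets) and left out only as an alternative. Cells are not replicates, so counts were summed per sample and gate (at least 3 marker UMIs for the tumour and myeloid, 2 for the B and T gates) and tested with edgeR 4.0.16 (quasi-likelihood, TMM, filterByExpr). DESeq2 1.42.0 was an alternative. With few T-gated cells outside Treated 2, the T comparison was run with at least 10. Library totals over kept cells ran from 9574906 to 13024964 UMIs. Some of the edgeR tests were also run on simulated counts. Named members were the catalytic pairs, the activators and up to 5 called members per direction and comparison. Promoter sequences came from RefSeq (GRCm38.p6), and gene spans, coding sequences and transcripts from GENCODE vM21 (GRCm38). Some genes of the lists are not reported here.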

Additional observations from a re-analysis of the deposited data

How the results depend on the processing

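Of 106 alternative settings of the counts of called members other than leaving out a sample, 92 stayed within 1.5 times the reported count. The replicate number as a block gave 3 called members for SP11 in the tumour gate (Psma5 and Psmg2 lower, Psmd3 higher) and 6 in all kept cells. The numbers are shared by only 2 pairs, their deviations correlated by 0.143 in the tumour gate, and the samples are not shown to be paired. For SP11 in the myeloid gate the count was 1 with gate markers at 60% and 1 without shared barcodes. For B against myeloid it was 7 with gate markers at 90%, 1 without shared barcodes, 8 without scaling factors and 6 in treated samples only. The interaction gave 1 without scaling factors and the mitotic comparison 12 with DESeq2. T against tumour, tested with at least 10 cells after seeing the data, called 26 members (4 higher, 22 lower) with a scaling factor of up to 2.29; it called 14 with a higher minimum of gate markers, 16 without shared barcodes, 14 without scaling factors and 11 with DESeq2.

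Leaving out each sample in turn gave 0 to 0 called members for SP11 in the tumour gate, the myeloid gate and the interaction, 2 to 5 in all kept cells, 17 to 33 for myeloid against tumour, 11 to 38 for B against tumour, 13 to 25 for T against tumour, 0 to 3 for B against myeloid and 14 to 18 for mitotic-high against mitotic-low cells. SP11 minus control shares then ran, in percentage points, from 0.547 to 1.36 (Psmb8 pair), 0.00732 to 0.406 (Psmb9) and -6.51 to 4.46 (Psmb10) in the tumour gate, from -14.2 to -3.90, -16.4 to -8.39 and -9.54 to 9.57 in the myeloid gate, and from 4.88 to 6.28, 1.48 to 2.19 and -2.39 to 7.34 in all kept cells. Myeloid minus tumour shares ran from 64.6 to 69.8, 39.3 to 45.3 and 35.6 to 44.2. The Psmb8 difference in all kept cells was 4.71 with at least 500 genes per cell and 4.71 without shared barcodes. Without shared barcodes the Psmb9 difference reversed in the tumour gate (-0.00720) and was -6.20 in the myeloid gate, and without called doublets the Psmb10 difference in the myeloid gate reversed (-0.0761). The cause was not tested. The Psmb10 reversals on leaving out a sample were 2.30 and 4.46 (tumour), -9.54 and -0.468 (myeloid) and -0.808 and -2.39 (all kept). Depth limits the immune gates most. Psmb7 rests on 1 UMI in the B gate of Treated 1 and on 0 UMIs in its T gate.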
